A study of Mus musculus with 15 samples.

Results

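The growth factor and endothelin genes Igf1, Tgfb1, Hbegf, Pdgfa, Pdgfb, Pdgfc, Gdnf, Edn1 and Ednrb were followed across 5 groups of cultured mouse macrophages. They are 9 of the 53465 genes in the count table, found by matching Ensembl identifiers to these symbols. The 9 were picked with earlier results of these same libraries known, and which values led to each pick is not recorded. Their levels and differences are therefore given as a description, and the adjusted p-values beside them compare a difference with the spread between replicates without supporting the choice of genes.

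The cells were bone marrow-derived macrophages (BMDMs), which are grown from marrow precursors with M-CSF (20 ng/ml) in medium with 10% serum over 7 days. The study's methods give mice of 8 to 12 weeks as the source of marrow for BMDMs. Control cells received no further cytokine, and the other cells received for 24 h IL-4, IL-4/IL-6, IL-13 or IL-13/IL-6. IL-4 was used at 10 ng/ml throughout, and both IL-6 and IL-13 at 40 ng/ml. Each group held 3 libraries described as biological replicates, with 17001352 to 18918686 counted reads per library and a median of 18278484. There was no group with IL-6 alone, so each effect of IL-6 below is that of its co-addition to IL-4 or IL-13, and the doses of IL-4 and IL-13 were not matched.

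Macrophages that respond to IL-4 or IL-13 are known as sources of factors for repair, and these 9 genes belong to that traffic between cells. IGF1 and the PDGF chains act on mesenchymal cells through receptor tyrosine kinases, HB-EGF is a membrane-bound ligand of the EGF receptor that is released by a protease, and GDNF is a neurotrophic ligand of the RET receptor. TGF-β1 is secreted in a latent form that must be activated. Endothelin-1, the product of Edn1, is a vasoactive peptide, and the endothelin B receptor encoded by Ednrb both signals and clears it.

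Ahead of the levels, promoter windows are shown for 4 genes with contrasting patterns. Edn1 and Igf1 were highest with IL-4 and lower with IL-4/IL-6, whereas Ednrb and Pdgfc were lower with IL-4 than in control and higher with IL-4/IL-6. Each window runs from 250 bases before to 50 bases after a transcription start in RefSeq on GRCm38.p6 and is written 5′ to 3′ on the strand of the gene. The windows were searched for TTC and GAA with 4 bases of any kind between them, the spacing preferred by STAT6, for TTC and GAA with 3 bases between them, a site type bound by STAT3 and other STATs, and for TGANTCA, the AP-1 type. All 3 motifs read the same on both strands, N stands for any base, and capitals mark a match. The Edn1 window lies at chr13:42301226-42301525 on the plus strand, that of Igf1 at chr10:87860861-87861160 on the plus strand, that of Ednrb at chr14:103843652-103843951 on the minus strand and that of Pdgfc at chr3:81036166-81036465 on the plus strand.
Edn1: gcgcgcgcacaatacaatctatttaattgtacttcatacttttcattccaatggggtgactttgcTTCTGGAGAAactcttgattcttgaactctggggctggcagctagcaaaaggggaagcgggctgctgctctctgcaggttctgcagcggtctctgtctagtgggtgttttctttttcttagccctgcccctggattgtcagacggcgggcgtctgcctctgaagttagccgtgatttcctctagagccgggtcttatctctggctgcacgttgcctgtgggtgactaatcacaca
Igf1: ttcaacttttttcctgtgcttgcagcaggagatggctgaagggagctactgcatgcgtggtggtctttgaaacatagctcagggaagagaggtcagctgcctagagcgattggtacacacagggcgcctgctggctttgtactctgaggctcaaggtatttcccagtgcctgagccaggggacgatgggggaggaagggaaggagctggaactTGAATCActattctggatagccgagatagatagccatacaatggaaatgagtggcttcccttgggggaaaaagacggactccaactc
Ednrb: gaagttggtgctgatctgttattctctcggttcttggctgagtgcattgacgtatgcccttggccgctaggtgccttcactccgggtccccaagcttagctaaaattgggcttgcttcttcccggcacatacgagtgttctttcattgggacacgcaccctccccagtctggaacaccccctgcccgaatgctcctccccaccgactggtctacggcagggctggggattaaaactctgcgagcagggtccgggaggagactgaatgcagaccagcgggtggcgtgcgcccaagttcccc
Pdgfc: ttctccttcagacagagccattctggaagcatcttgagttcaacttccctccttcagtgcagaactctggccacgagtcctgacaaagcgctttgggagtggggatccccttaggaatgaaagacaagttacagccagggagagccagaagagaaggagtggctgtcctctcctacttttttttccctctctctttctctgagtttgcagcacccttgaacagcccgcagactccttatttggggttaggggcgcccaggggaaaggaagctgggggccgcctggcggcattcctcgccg

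The Edn1 window held 1 match of the 4-base spacing, which began 185 bases before the start, and the Igf1 window held 1 AP-1 type match 37 bases before the start. Such matches are common, since the 4-base spacing was in 6.95% of 32851 mouse promoter windows of the same 300 bases, the 3-base spacing in 8.3% and the AP-1 type in 7.81%. The windows of Ednrb and Pdgfc above held none of the 3 motifs, and neither did the windows found for Pdgfa, Gdnf and Tgfb1. Windows were found for 7 of the 9 genes, not for Pdgfb and Hbegf. In the GENCODE annotation of GRCm38 the genes span chr10:87858265-87937042 (Igf1), chr7:25687002-25705077 (Tgfb1), chr18:36504927-36515805 (Hbegf), chr5:138976014-138997370 (Pdgfa), chr15:79995874-80014977 (Pdgfb), chr3:81036416-81214040 (Pdgfc), chr15:7810846-7837575 (Gdnf), chr13:42301476-42307990 (Edn1) and chr14:103814625-103844402 (Ednrb), and the printed windows of Igf1 and Ednrb belong to a start inside these spans.

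All 8 macrophage markers were counted in every group. Their summed levels were 18935 to 21114 normalized CPM (counts scaled by TMM-adjusted library size) in control, 14308 to 14779.7 with IL-4, 10899.9 to 12704 with IL-4/IL-6, 17051 to 19799.8 with IL-13 and 13928 to 14819.7 with IL-13/IL-6. The sum was lower with IL-6 than without it in both settings, while its members went both ways. With IL-6 added to IL-4, 3 of the 8 were called higher and 5 lower (39.4% of all genes called, median -0.19 against 0.04 over all tested genes). With IL-6 added to IL-13, 3 were higher, 2 lower and 3 not called (25.6% of all genes called, median 0.09 against 0.01). The part of these markers in the IL-6 results below was not tested. The control libraries also held markers of other marrow cells that were almost absent after cytokine treatment. Granulocyte and precursor markers summed to 460.1 to 547 CPM in control and to at most 2.14 in the treated libraries, with Camp and Ltf at 0 with IL-4 and Ngp, Camp and Ltf at 0 with IL-4/IL-6. Fibroblast and stromal markers summed to 16.8 to 21.5 CPM in control and to at most 0.482 elsewhere, where Col1a1, Col3a1 and Lum were at 0 in every group. For mast cells and basophils the sums were 11.6 to 13.9 and at most 0.236 (Fcer1a at 0 in all treated groups), for B cells 10.2 to 10.8 and at most 1.55, and for T cells at most 0.28 anywhere with Cd3e at 0 in all groups. The 6 megakaryocyte and platelet markers summed to 378 to 422 CPM in control, 70.4 to 74.8 with IL-4, 175 to 314 with IL-4/IL-6, 72.8 to 89.8 with IL-13 and 349 to 422 with IL-13/IL-6. In the treated groups this sum was nearly all Pf4, while Itga2b was at 1.47 to 1.72 CPM and Gp9 at no more than 0.142 CPM on average in each of the 4 groups. The 6 endothelial markers summed to 206 to 220.2 CPM in control and 72 to 131 CPM elsewhere, most of it Vwf, with Cldn5 at 0 in all groups. These values stand beside every comparison with control below, and their part in those results was not tested. In bulk RNA, fewer cells of a type and less RNA per cell cannot be told apart.

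**Figure D1:**
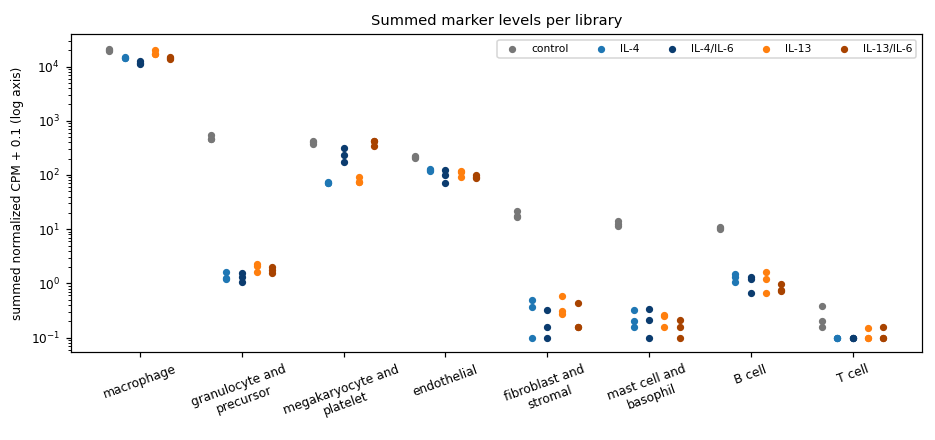
Summed normalized CPM of each marker list (vertical log axis, with 0.1 added) for every library, grouped by cell type on the horizontal axis and coloured by treatment. Macrophage markers lie between 10899.9 and 21114 in all groups, while granulocyte markers lie between 460.1 and 547 in control and at or below 2.14 in treated libraries.

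Among the replicates, IL-4/IL-6 replicate 2 and IL-13 replicate 1 differed most from the others of their group. The biological coefficient of variation was 15.1% between IL-4/IL-6 libraries and 11.1% between IL-13 libraries, against 4.54% in control, 4.57% with IL-4 and 7.41% with IL-13/IL-6. Leaving out either of these libraries kept all calls of the 9 genes with IL-6 co-addition except that of Tgfb1 with IL-13, given below.

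All 9 genes passed the filter on low counts, Gdnf and Edn1 only through the groups in which they were high. A gene is called when its adjusted p is under 0.05. With IL-4 against control 7 of the 9 were higher and 2 lower, where 68% of all 13938 tested genes were called, 32.1% as higher and 35.9% as lower. With IL-13 against control 6 were higher, 2 lower and 1 was not called (of all genes 60.1% called, 29% higher, 31.1% lower). For IL-4/IL-6 against control the numbers were 6, 3 and 0 (72.9% called, 35.4% higher, 37.5% lower), and for IL-13/IL-6 against control 5, 1 and 3 (64% called, 31.9% higher, 32.1% lower). Co-addition of IL-6 to IL-4 went with 4 higher and 5 lower genes (39.4% of all genes called, 20.7% higher, 18.7% lower). Co-addition to IL-13 went with 4 higher, 4 lower and 1 not called (25.6% called, 12.1% higher, 13.5% lower). Of all genes called with IL-6 added to IL-4, 52.6% were higher, and 39% with upper-quartile factors in place of TMM. Changes of at least 2-fold were fewer. Of the 9, 7 passed this as well with IL-6 added to IL-4 (11.8% of all genes) and 5 with IL-6 added to IL-13 (7.25%). Nothing is read from these shares, as the genes were picked on these libraries.

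**Figure D2:**
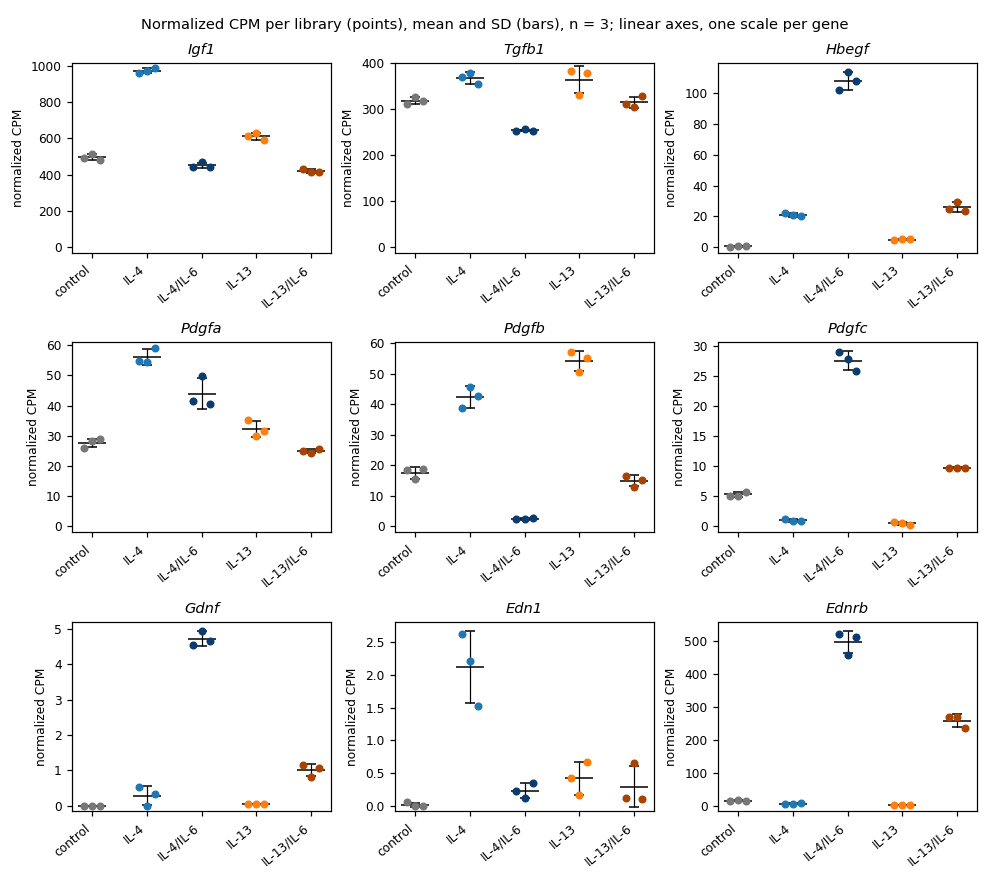
Normalized CPM (linear vertical axes from 0, 1 scale per gene) of the 9 genes in each library of the 5 groups, with bars for the mean and SD of 3 replicates. Ednrb lies near 497 CPM with IL-4/IL-6 and near 258 CPM with IL-13/IL-6 against 1.96 to 15.9 CPM in the other groups, and Pdgfb and Pdgfc run in opposite orders.

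Igf1, which encodes insulin-like growth factor 1, was among the most abundant of the 9 transcripts in all groups and was highest with IL-4. Its counted reads were 9467, 9256 and 8605 in the control libraries, 17914, 17525 and 18068 with IL-4, 7831, 7938 and 7680 with IL-4/IL-6, 11403, 11191 and 11436 with IL-13, and 7434, 7653 and 7433 with IL-13/IL-6. The 5 groups did not overlap in normalized CPM and ran in the order IL-4, IL-13, control, IL-4/IL-6 and IL-13/IL-6. Mean levels were 972 ± 13.7 CPM (SD, n = 3) with IL-4, 610.02 ± 20.5 with IL-13, 496 ± 15.3 in control, 451 ± 14.2 with IL-4/IL-6 and 419.5 ± 9.1 with IL-13/IL-6.

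IL-4 raised Igf1 1.96-fold over control (log2 fold change 0.97, SE 0.053, adjusted p = 5.7e-11), and IL-13 raised it 1.23-fold (0.30, SE 0.053, adjusted p = 0.00011). With IL-6 co-addition the level fell 2.15-fold against IL-4 (-1.11, SE 0.053, adjusted p = 2.5e-11) and 1.45-fold against IL-13 (-0.54, SE 0.053, adjusted p = 4.2e-07). The 2 decreases differed from each other by -0.57 on the log2 scale (SE 0.074, adjusted p = 8.6e-05), so that the decrease was larger in IL-4-treated cells. Both combinations ended below control, by -0.14 with IL-4/IL-6 (adjusted p = 0.027) and by -0.24 with IL-13/IL-6 (adjusted p = 0.00068). The first of these calls was lost when any of these was left out: control replicate 2, IL-4 replicate 1, 2 or 3, IL-4/IL-6 replicate 1 or 3, or IL-13/IL-6 replicate 1 or 3. The values then lay between -0.13 and -0.11 with adjusted p from 0.0572 to 0.114.

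Igf1r, the receptor of IGF1, was itself expressed at 18.2 ± 2.24 CPM in control and 9.27 ± 0.662 with IL-4, a decrease of -0.98 (adjusted p = 7.3e-06). With IL-6 co-addition it stood at 12.9 ± 2.38 CPM, higher than with IL-4 by 0.48 (SE 0.139, adjusted p = 0.011), whereas the change against IL-13 did not pass the test (0.20, adjusted p = 0.34). Igfbp4, an IGF-binding protein, rose with IL-6 in both settings, from 186 ± 6.33 to 238 ± 23.1 CPM with IL-4 and from 229 ± 8.55 to 311 ± 16.4 CPM with IL-13. The low-level Igfbp6 rose more steeply, by 2.13 (SE 0.399, adjusted p = 0.00035) with IL-4 and by 2.72 (SE 0.381, adjusted p = 3e-05) with IL-13. Igfbp1, Igfbp2 and Igfbp3 had no counted read in any library.

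Tgfb1, which encodes TGF-β1, changed by less than 2-fold in every comparison. The reads were 5988, 5875 and 5678 in control, 6908, 6850 and 6485 with IL-4, 4447, 4344 and 4394 with IL-4/IL-6, 7164, 5873 and 7340 with IL-13, and 5374, 5629 and 5903 with IL-13/IL-6. Group means ran from 254 ± 1.99 CPM with IL-4/IL-6 to 368 ± 12.8 CPM with IL-4, with 319 ± 6.77 in control, 364 ± 29.1 with IL-13 and 315 ± 12 with IL-13/IL-6. IL-4 and IL-13 overlapped, and so did control and IL-13/IL-6, while IL-4/IL-6 lay below all other libraries.

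Both cytokines raised Tgfb1 slightly over control, by 0.21 with IL-4 (SE 0.062, adjusted p = 0.0074) and by 0.19 with IL-13 (SE 0.062, adjusted p = 0.013). Co-addition of IL-6 lowered it by -0.53 in IL-4-treated cells (SE 0.062, adjusted p = 2e-06) and by -0.21 in IL-13-treated cells (SE 0.062, adjusted p = 0.018). The decrease with IL-13 was no longer called without IL-13 replicate 1 (-0.18, adjusted p = 0.0587), IL-13 replicate 3 (-0.19, adjusted p = 0.0767), IL-13/IL-6 replicate 1 (-0.21, adjusted p = 0.0535) or IL-13/IL-6 replicate 2 (-0.19, adjusted p = 0.0716). The difference between the decreases was -0.32 (SE 0.088, adjusted p = 0.03). That call was lost when IL-4 replicate 1, IL-4 replicate 2, IL-4/IL-6 replicate 1, IL-13 replicate 2 or IL-13/IL-6 replicate 3 was left out, with values from -0.33 to -0.26 and adjusted p from 0.0594 to 0.0797.

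Genes that hold or release latent TGF-β1 moved in both directions. Lrrc32 encodes GARP, which tethers the latent form at the cell surface, and it fell from 4.27 ± 0.965 CPM with IL-4 to 0.287 ± 0.15 with IL-4/IL-6 (-3.86, SE 0.339, adjusted p = 6.1e-08). In IL-13-treated cells it fell from 1.08 ± 0.401 to 0.205 ± 0.0338 CPM (-2.37, SE 0.429, adjusted p = 0.00041). The related tether Nrros was far more abundant, at 354 ± 3.49 CPM with IL-4 and 279 ± 12.2 with IL-4/IL-6 (-0.34, SE 0.052, adjusted p = 3.8e-05), and did not pass the test against IL-13 (0.03, adjusted p = 0.71). Of the latent TGF-β binding proteins, Ltbp4 rose by 2.2 (SE 0.303, adjusted p = 1.4e-05) with IL-6 and IL-4 and by 2.91 (SE 0.411, adjusted p = 3.4e-05) with IL-6 and IL-13, whereas Ltbp2 fell by -2.65 (adjusted p = 0.013) and -1.33 (adjusted p = 0.021). Against control, Ltbp1 dropped from 9.82 ± 0.724 to 0.0727 ± 0.0316 CPM with IL-4, and Thbs1, an activator of latent TGF-β, from 341 ± 16 to 1.53 ± 0.421 CPM (-7.80, SE 0.189, adjusted p = 4.3e-15). These control libraries are the ones with stromal markers.

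All 12 genes listed for TGF-β signaling and its responses were tested. With IL-4 against control 5 were higher and 4 lower (68% of all genes called, median 0.30 against -0.05 over all tested genes), and with IL-13 5 and 4 (60.1% of all genes, 0.15 against -0.02). With IL-6 added to IL-4, 2 were higher and 3 lower (39.4% of all genes, -0.27 against 0.04), and with IL-6 added to IL-13, 1 was higher and 4 lower (25.6% of all genes, -0.10 against 0.01). Tgfbi, which encodes an extracellular protein named for its induction by TGF-β, had groups that did not overlap in either setting. It rose from 955 ± 26.3 to 2870.4 ± 245 CPM with IL-4 (1.59, SE 0.074, adjusted p = 1.8e-11) and from 710.4 ± 45.7 to 2494 ± 119.6 CPM with IL-13 (1.81, SE 0.075, adjusted p = 9.2e-12). The inhibitory Smad7 fell by -0.80 (adjusted p = 0.0013) and -0.54 (adjusted p = 0.022), and the receptor-regulated Smad3 by -0.79 (adjusted p = 0.0029) and -0.45 (adjusted p = 0.046), with overlapping libraries in the second case. Smad6, also inhibitory, fell by -0.42 (adjusted p = 0.011) and -0.48 (adjusted p = 0.0048).

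The TGF-β receptor genes changed in different directions. Tgfbr3, which encodes the coreceptor betaglycan, rose from 0.473 ± 0.12 to 14.6 ± 2.32 CPM with IL-6 and IL-4 (4.93, SE 0.323, adjusted p = 1.4e-09) and from 0.392 ± 0.176 to 2.23 ± 0.576 CPM with IL-6 and IL-13 (2.48, SE 0.399, adjusted p = 0.00013). The rise was larger with IL-4, with a difference of 2.45 (SE 0.615, adjusted p = 0.019). Tgfbr2 rose by 1.24 (SE 0.079, adjusted p = 9.4e-10) and 1.08 (SE 0.078, adjusted p = 9.4e-09), and Tgfbr1 fell by -0.81 (SE 0.095, adjusted p = 2.2e-06) and -0.92 (SE 0.094, adjusted p = 7.6e-07). Against control, IL-4 lowered Tgfbr1 from 259.8 ± 4.65 to 74.5 ± 2.52 CPM (-1.80, SE 0.094, adjusted p = 3e-11).

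Hbegf, which encodes heparin-binding EGF-like growth factor, was near the limit of detection in control and rose with each cytokine. The counts were 5, 15 and 7 in control, 412, 376 and 365 with IL-4, 1803, 1934 and 1882 with IL-4/IL-6, 80, 89 and 102 with IL-13, and 428, 544 and 424 with IL-13/IL-6. The levels ran in the order IL-4/IL-6 (108 ± 5.86 CPM), IL-13/IL-6 (26 ± 3.14), IL-4 (20.9 ± 1.07), IL-13 (4.85 ± 0.505) and control (0.495 ± 0.299), and no neighbouring groups overlapped.

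IL-4 raised Hbegf 42.1-fold over control (log2 5.39, SE 0.2, adjusted p = 4.7e-13) and IL-13 raised it 9.77-fold (3.29, SE 0.243, adjusted p = 4e-09). As control replicate 2 held 15 of the 27 control reads, the log2 values without it were 5.99 and 3.88. IL-6 co-addition gave a further 5.17-fold increase with IL-4 (2.37, SE 0.114, adjusted p = 2.5e-11) and a 5.34-fold increase with IL-13 (2.42, SE 0.135, adjusted p = 3.2e-10). A difference between these increases was not detected (-0.05, SE 0.172, adjusted p = 0.94). Adam17, the main sheddase of the HB-EGF precursor, was lower with IL-4 than in control (389 ± 8.31 and 189 ± 2.11 CPM, -1.04, adjusted p = 6.7e-11) and fell a little further with IL-6 (-0.19, adjusted p = 0.012). Cd9, a membrane partner of the precursor, fell from 531 ± 36 to 243 ± 44.3 CPM with IL-6 and IL-4 (-1.13, adjusted p = 8.3e-08) and from 485 ± 43.5 to 215 ± 11.5 CPM with IL-6 and IL-13 (-1.17, adjusted p = 1e-07).

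Of 18 other ligands in the families of the 9 genes, 4 passed the filter on low counts (Egf, Nrg1, Nrg2 and Nrg4). Nrg1, a neuregulin of the EGF family that binds ERBB receptors, had 3 reads over the 3 IL-4 libraries and 106 with IL-4/IL-6, a ratio of 37.4 with a counting interval of 12.5 to 184 (adjusted p = 9.4e-07). With IL-13 it had none and with IL-13/IL-6 54 reads, which is at least 18.7-fold higher when the floor is set at 3 reads over a group (adjusted p = 7.9e-06). Btc, which encodes the EGF-family ligand betacellulin, was below the filter and went the other way, with 25 reads with IL-4 and none with IL-4/IL-6 (at least 7.86-fold lower). It had 12 reads with IL-13 and 1 with IL-13/IL-6, a ratio of 0.0867 with a counting interval of 0.00203 to 0.586. Nrg2 rose by 3.46 with IL-6 and IL-4 (SE 0.66, adjusted p = 0.0004) and Nrg4 had values of 1.25 ± 0.0952 and 1.94 ± 0.606 CPM without passing the test (0.63, adjusted p = 0.13). Over these 4 genes the median was 2.05 with IL-6 and IL-4 (2 higher, 39.4% of all genes called) and 0.56 with IL-6 and IL-13 (1 higher, 25.6% of all genes called). Against control 3 were lower with IL-4 (median -1.63, 68% of all genes called) and 3 with IL-13 (-1.82, 60.1% of all genes called). Nrg1 passed the filter only through the groups with IL-6, where it was high, and Btc was left out by it. The medians with IL-6 therefore depend on the filter, and nothing is read from them.

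Among the PDGF ligand genes, IL-6 lowered Pdgfa and Pdgfb and raised Pdgfc with either cytokine. Pdgfa encodes the A chain, Pdgfb the B chain and Pdgfc a chain that must be cut by a protease before it binds its receptor.

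Pdgfa had 501, 509 and 513 reads in control, 1023, 985 and 1084 with IL-4, 734, 844 and 702 with IL-4/IL-6, 660, 532 and 613 with IL-13, and 434, 447 and 458 with IL-13/IL-6. Means were 56.1 ± 2.61 CPM with IL-4, 43.9 ± 5.06 with IL-4/IL-6, 32.3 ± 2.76 with IL-13, 27.7 ± 1.41 in control and 24.9 ± 0.632 with IL-13/IL-6, in groups that did not overlap. IL-4 raised it 2.03-fold (1.02, SE 0.088, adjusted p = 2e-08), and IL-6 lowered it by -0.35 with IL-4 (SE 0.086, adjusted p = 0.003) and by -0.37 with IL-13 (SE 0.09, adjusted p = 0.0046). The increase with IL-13 was 0.22 (SE 0.089, adjusted p = 0.04) and was not called without control replicate 1 (0.19, adjusted p = 0.126), control replicate 2 (0.25, adjusted p = 0.0543) or IL-13 replicate 1 (0.19, adjusted p = 0.0921), nor with upper-quartile factors (0.21, adjusted p = 0.0516) or with the replicate number as a block (0.22, adjusted p = 0.0582). An antisense gene, 6330403L08Rik, overlaps Pdgfa and held 3972 reads against 10039 on Pdgfa. Its group means lay between 10.9 and 17 CPM, and because the strand setting of the counting is not stated, reads of the pair cannot be told apart.

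Pdgfb had 355, 278 and 336 reads in control, 724, 827 and 784 with IL-4, 42, 39 and 47 with IL-4/IL-6, 1065, 901 and 1071 with IL-13, and 287, 239 and 276 with IL-13/IL-6. The IL-13 and IL-4 libraries were the highest and IL-4/IL-6 the lowest, while control and IL-13/IL-6 overlapped. IL-4 raised Pdgfb 2.41-fold over control, from 17.6 ± 1.9 to 42.4 ± 3.53 CPM (1.27, SE 0.103, adjusted p = 1e-08), and IL-13 raised it 3.09-fold to 54.3 ± 3.24 CPM (1.63, SE 0.103, adjusted p = 5.4e-10).

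Co-addition of IL-6 lowered Pdgfb 17.2-fold in IL-4-treated cells, to 2.46 ± 0.216 CPM (-4.10, SE 0.132, adjusted p = 1.7e-13). In IL-13-treated cells it lowered Pdgfb 3.63-fold, to 15 ± 1.85 CPM (-1.86, SE 0.105, adjusted p = 3.8e-10). The decreases differed by -2.24 (SE 0.172, adjusted p = 4.1e-07), the largest difference among the 9 genes that passed the test. With IL-4/IL-6 the level was 7.12-fold below control (-2.83, SE 0.138, adjusted p = 6.8e-12), whereas with IL-13/IL-6 it was not called against control (-0.23, SE 0.109, adjusted p = 0.07). This last comparison passed the test without control replicate 2 (-0.32, adjusted p = 0.0254).

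Pdgfc had 98, 92 and 103 reads in control, 23, 15 and 17 with IL-4, 511, 473 and 449 with IL-4/IL-6, 15, 10 and 5 with IL-13, and 167, 180 and 176 with IL-13/IL-6. No groups that were neighbours in level overlapped, and both groups with IL-6 were above control and both groups without it below. IL-4 lowered Pdgfc 5.3-fold, from 5.33 ± 0.39 to 0.996 ± 0.209 CPM (-2.41, SE 0.202, adjusted p = 1.5e-08), and IL-13 lowered it 9.79-fold, to 0.541 ± 0.274 CPM (-3.29, SE 0.227, adjusted p = 1.6e-09).

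With IL-6 the level of Pdgfc rose 27.4-fold over IL-4, to 27.6 ± 1.58 CPM (4.78, SE 0.182, adjusted p = 1.2e-12), and 17.9-fold over IL-13, to 9.74 ± 0.0692 CPM (4.16, SE 0.213, adjusted p = 1.1e-10). A difference between the increases did not pass the test (0.62, SE 0.343, adjusted p = 0.38). Against control the combinations were higher by 2.37 (SE 0.144, adjusted p = 1.4e-10) and 0.87 (SE 0.15, adjusted p = 7.4e-05).

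Per length of transcript, in the deposited FPKM values, the 3 genes can be set against each other. Pdgfa made up 55.7% ± 2.97 of their summed FPKM in control, Pdgfb 37.7% ± 3 and Pdgfc 6.56% ± 0.183. With IL-4 the shares were 55% ± 2.23, 44.4% ± 2.34 and 0.602% ± 0.154, and with IL-4/IL-6 69.1% ± 2.39, 4.18% ± 0.675 and 26.7% ± 2.01. Thus Pdgfb was the second PDGF transcript with IL-4 and the last with IL-4/IL-6. With IL-13 the shares were 35.6% ± 0.86, 64% ± 1.02 and 0.364% ± 0.172, and with IL-13/IL-6 53.2% ± 1.76, 34% ± 2.49 and 12.7% ± 0.741. By group mean, Pdgfb led with IL-13 and Pdgfa in the other 4 groups.

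**Figure D3:**
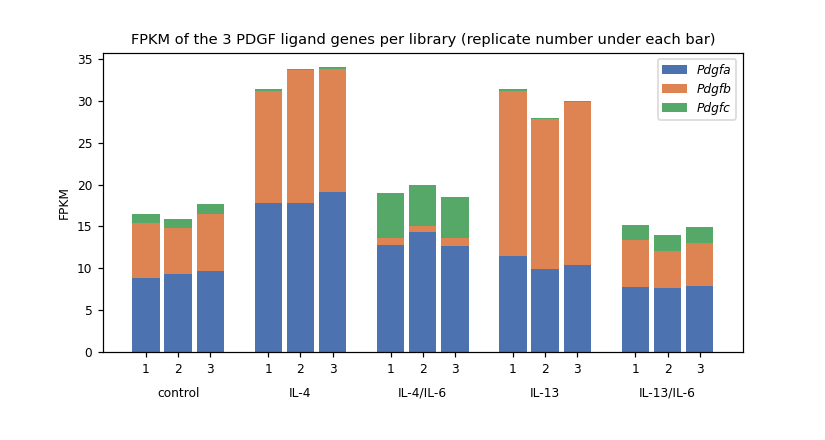
Stacked FPKM (linear vertical axis from 0) of Pdgfa, Pdgfb and Pdgfc in each of the 15 libraries, with the replicate number under each bar. The Pdgfb segment is large with IL-4 and IL-13 and small with IL-4/IL-6, where Pdgfc makes up 26.7% of the sum on average against 0.602% with IL-4.

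The PDGF receptor genes were hardly counted. Pdgfra had 12 reads in the 3 control libraries, 5 with IL-13 and none in the other groups, and Pdgfrb stood at 0.948 ± 0.302 CPM in control and at 0.164 ± 0.166 CPM with IL-4 (-2.48, adjusted p = 0.0088). Both are in the list of stromal markers, which summed to at most 0.482 CPM in treated libraries. Plau, a protease of the plasminogen system, rose from 97.7 ± 1.21 CPM in control to 555 ± 24 with IL-4 (2.51, adjusted p = 4.7e-14) and fell with IL-6 by -1.58 (SE 0.074, adjusted p = 1.9e-11) and, with IL-13, by -1.47 (SE 0.073, adjusted p = 8.1e-11). Plat, another protease of that system, had no more than 4 reads in any group. Cutting of the PDGF chains was not measured. Of the 6 megakaryocyte and platelet markers 2 were called higher with IL-6 in both settings and none lower. Of all tested genes, 20.7% were called higher with IL-6 added to IL-4 and 12.1% with IL-6 added to IL-13. Pf4 rose by 1.77 (adjusted p = 7e-08) with IL-4 and by 2.37 (adjusted p = 4.1e-09) with IL-13, and Ppbp by 0.80 (adjusted p = 0.024) and 1.15 (adjusted p = 0.0015). The part of these markers in the results was not tested.

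Gdnf, which encodes glial cell line-derived neurotrophic factor, was counted in numbers only where IL-6 was present. It had 0, 0 and 0 reads in control, 10, 0 and 6 with IL-4, 80, 84 and 81 with IL-4/IL-6, 1, 1 and 1 with IL-13, and 20, 15 and 19 with IL-13/IL-6. The groups with IL-6 were separate from the others and from each other, while IL-4 and IL-13 overlapped. A control count of 0 allows up to 3 reads over the group, so Gdnf was at least 86.5-fold higher with IL-4/IL-6 (adjusted p = 4.6e-08), at least 18.5-fold higher with IL-13/IL-6 (adjusted p = 2.6e-05) and at least 5.33-fold higher with IL-4 (adjusted p = 0.0027) than in control. The IL-4 value overlapped with control through IL-4 replicate 2, which had no read, and the fitted log2 value of 5.43 was 4.65 without IL-4 replicate 1.

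Against IL-4, co-addition of IL-6 raised Gdnf from 0.288 ± 0.27 to 4.72 ± 0.212 CPM (3.99, SE 0.434, adjusted p = 2.2e-06). This value was 4.76 without IL-4 replicate 1 and 3.40 without IL-4 replicate 2. Against IL-13, with 54 reads to 3, the ratio was 18.7 with a counting interval of 6.07 to 93.6 (adjusted p = 0.00041). A difference between these increases was not detected (-0.07, adjusted p = 0.96). Ret, the signaling receptor of GDNF, had no more than 7 reads in any group. Gfra1, its coreceptor, lay between 0.291 ± 0.04 and 0.436 ± 0.284 CPM with no call in any comparison, and Gfra2 fell from 1.05 ± 0.226 to 0.175 ± 0.177 CPM with IL-6 and IL-4 (-2.56, SE 0.694, adjusted p = 0.007).

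Edn1, the gene of endothelin-1, was almost uncounted in control and was highest with IL-4. It had 1, 0 and 0 reads in control, 49, 40 and 28 with IL-4, 4, 2 and 6 with IL-4/IL-6, 8, 3 and 13 with IL-13, and 2, 12 and 2 with IL-13/IL-6. The IL-4 libraries were separate from all others, whereas IL-13, IL-13/IL-6 and IL-4/IL-6 overlapped as neighbours. Against the 1 control read, the ratio was 117 with IL-4 (counting interval 20.6 to 4659, adjusted p = 3.2e-06) and 23.7 with IL-13 (3.86 to 973, adjusted p = 0.0036). The control read was in replicate 1, and without that library the fitted log2 values rose from 6.41 to 8.27 and from 4.12 to 5.97.

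IL-6 lowered Edn1 8.96-fold in IL-4-treated cells, from 2.12 ± 0.553 to 0.23 ± 0.114 CPM (-3.16, SE 0.557, adjusted p = 0.00019). In IL-13-treated cells the level was 0.422 ± 0.25 CPM without and 0.293 ± 0.31 CPM with IL-6, a difference that was not detectable at this depth (-0.52, SE 0.651, adjusted p = 0.63), and which was -1.86 without IL-13/IL-6 replicate 2 (adjusted p = 0.103). The difference between the 2 settings did not pass the test (-2.65, SE 0.906, adjusted p = 0.095). It rested on IL-13/IL-6 replicate 2, which held 12 of that group's 16 reads, and was -1.32 without it. Both combinations were above control, with ratios of 12.7 (1.88 to 544, adjusted p = 0.026) for IL-4/IL-6 and 16.4 (2.55 to 688, adjusted p = 0.013) for IL-13/IL-6. Neither call was stable, as the first was lost without control replicate 2 (adjusted p = 0.075), control replicate 3 (adjusted p = 0.0757) or IL-4/IL-6 replicate 3 (adjusted p = 0.0804), and the other without IL-13/IL-6 replicate 2 (adjusted p = 0.14). The fitted log2 values, 3.25 and 3.60, were 5.10 and 5.45 without control replicate 1, and the value for IL-13/IL-6 was 2.27 without IL-13/IL-6 replicate 2.

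Ednrb, the endothelin B receptor gene, had the largest fold change with IL-6 among the 9 genes, with either cytokine. It had 295, 309 and 273 reads in control, 99, 120 and 131 with IL-4, 9192, 7777 and 8874 with IL-4/IL-6, 39, 38 and 32 with IL-13, and 4655, 4967 and 4245 with IL-13/IL-6. The 5 groups were all separate. IL-4 lowered Ednrb 2.5-fold from the control level, from 15.9 ± 1.03 to 6.36 ± 0.956 CPM (-1.32, SE 0.112, adjusted p = 1.6e-08), and IL-13 lowered it 8.13-fold, to 1.96 ± 0.27 CPM (-3.02, SE 0.135, adjusted p = 7.1e-12).

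Co-addition of IL-6 raised Ednrb 78.1-fold over IL-4, to 497 ± 33.8 CPM (6.29, SE 0.112, adjusted p = 9.6e-17). Over IL-13 the increase was 132-fold, to 258 ± 19.2 CPM (7.04, SE 0.126, adjusted p = 1e-16). The increase was larger with IL-13 by 0.76 on the log2 scale (the difference as coded was -0.76, SE 0.175, adjusted p = 0.011), although the level reached was higher with IL-4/IL-6. This difference was not called without IL-13 replicate 3 (-0.65, adjusted p = 0.0606). Against control the combinations were 31.2-fold (4.96, SE 0.102, adjusted p = 2.2e-16) and 16.2-fold higher (4.02, SE 0.099, adjusted p = 2.8e-15).

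The ligand and the receptor of the endothelin pair thus moved in opposite directions with IL-6 and IL-4, and the comparisons share their libraries. Ednra, the endothelin A receptor gene, had a mean of no more than 0.0577 CPM in any group, Edn2 had no counted read, and Edn3 was counted only in control, at 0.0347 ± 0.0602 CPM. Ece1, the enzyme that cuts the endothelin precursor, fell from 29.4 ± 1.05 to 13.3 ± 0.612 CPM with IL-4 (-1.15, SE 0.126, adjusted p = 4.4e-07) and rose with IL-6 by 0.97 (SE 0.127, adjusted p = 7.2e-06) and, with IL-13, by 0.49 (SE 0.119, adjusted p = 0.0051). Endothelial cells, which are known for endothelin, are one cell type whose markers were checked. Of the 6 endothelial markers 3 were tested, and Cldn5 was at 0 in every group. Kdr rose with IL-6 by 0.51 (adjusted p = 0.034) with IL-4 and by 0.91 (adjusted p = 0.00037) with IL-13, whereas Vwf fell by -0.45 (adjusted p = 0.017) and -0.71 (adjusted p = 0.0013). Cdh5 had mean levels of 0.421 CPM in control, 0.469 with IL-4, 0.629 with IL-4/IL-6, 0.716 with IL-13 and 1.13 with IL-13/IL-6. With IL-13/IL-6 against control Kdr and Cdh5 were higher by 1.61 (adjusted p = 2.8e-07) and 1.42 (adjusted p = 0.033), and Vwf was lower by -1.95 (adjusted p = 3.8e-09). Their part in the results was not tested.

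**Figure D4:**
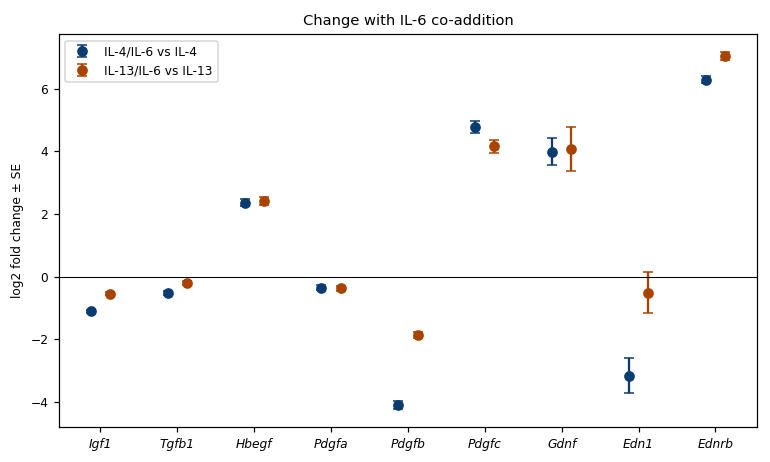
Log2 fold change with IL-6 co-addition (vertical axis, linear) for each of the 9 genes, with bars for the standard error, against IL-4 and against IL-13. Hbegf, Pdgfc, Gdnf and Ednrb lie above 0 in both comparisons, and Pdgfb lies at -4.10 against IL-4 and -1.86 against IL-13.

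IL-13 at 40 ng/ml was also set beside IL-4 at 10 ng/ml, with unequal doses. Of the 9 genes 1 was higher with IL-13, 5 were lower and 3 were not called, where 12.8% of all genes were called, 7.61% higher and 5.16% lower. That share rests on single libraries, as the number of genes called, 1779, was 1088 without IL-13 replicate 3 and 2915 without IL-13 replicate 1. Pdgfb was the higher gene, by 0.36 (SE 0.098, adjusted p = 0.022), and this call was lost without IL-4 replicate 1 (0.30, adjusted p = 0.116), IL-4 replicate 3 (0.36, adjusted p = 0.0717) or IL-13 replicate 3 (0.35, adjusted p = 0.0814). Lower were Igf1 by -0.67 (adjusted p = 1.3e-07), Pdgfa by -0.80 (adjusted p = 5.8e-06), Hbegf by -2.11 (adjusted p = 1.7e-08), Edn1 by -2.29 (adjusted p = 0.0044) and Ednrb by -1.70 (adjusted p = 5.3e-07). Tgfb1 had a difference of -0.01 (adjusted p = 0.92). Pdgfc, at -0.88 (adjusted p = 0.062), passed the test without IL-13 replicate 1 (-1.30, adjusted p = 0.011). Gdnf, at -2.29 (adjusted p = 0.11), passed it without IL-4 replicate 2 (-2.86, adjusted p = 0.0068) and with no filter on low counts (-2.31, adjusted p = 0.0398), and was at -1.50 without IL-4 replicate 1 (adjusted p = 0.389).

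Whether IL-6 acted differently with IL-4 and with IL-13 was tested as an interaction, in which 7.64% of all genes were called, 3.22% as positive and 4.42% as negative. Positive differences made up 42.2% of these calls, 31.7% with upper-quartile factors and 31.5% with no filter on low counts. Of the 9 genes 4 were called, and all 4 differences were negative, those of Igf1, Tgfb1, Pdgfb and Ednrb given above. For the other 5 the adjusted p lay between 0.095 (Edn1) and 0.97 (Pdgfa), which does not show equal changes.

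Of 18 receptor genes listed for these ligands, 12 were tested. With IL-4 against control 1 was higher and 9 were lower (68% of all genes called, median -1.04 against -0.05 over all tested genes), and with IL-13 1 and 10 (60.1% of all genes, -0.80 against -0.02). With IL-4/IL-6 against control the counts were 1 and 8 (72.9% of all genes, -0.54 against -0.05), and with IL-13/IL-6 2 and 6 (64% of all genes, -0.49 against -0.01). With IL-6 added to IL-4, 3 were higher and 2 lower (39.4% of all genes, -0.14 against 0.04), and with IL-6 added to IL-13, 2 were higher and 1 lower (25.6% of all genes, 0.05 against 0.01). Gfra2 was the higher gene with IL-4 (3.19, SE 0.746, adjusted p = 0.0012). Ncam1, an alternative receptor of GDNF, had 66 reads in control and 1 with IL-4, a ratio of 0.0151 with a counting interval of 0.000378 to 0.0874.

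Of 35 listed processing and binding partners 20 were tested. With IL-4 against control 7 were higher and 10 lower (68% of all genes called, median -0.20 against -0.05 over all genes), and with IL-13 4 and 9 (60.1% of all genes, -0.23 against -0.02). Against control the counts were 7 and 11 with IL-4/IL-6 (72.9% of all genes, -0.59 against -0.05) and 7 and 11 with IL-13/IL-6 (64% of all genes, -0.36 against -0.01). With IL-6 added to IL-4, 6 were higher and 10 lower (39.4% of all genes, -0.27 against 0.04), and with IL-6 added to IL-13, 6 were higher and 7 lower (25.6% of all genes, -0.07 against 0.01). Itgb8, a subunit of an integrin that activates TGF-β, was higher with IL-4 than in control (2.34 ± 0.648 and 0.221 ± 0.152 CPM, 3.38, SE 0.562, adjusted p = 4.9e-05). Sparc, a matrix protein that binds PDGF, had 149 reads in control and none in any treated library, at least 49.7-fold lower with IL-4, and control was also the group with stromal markers.

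**Figure D5:**
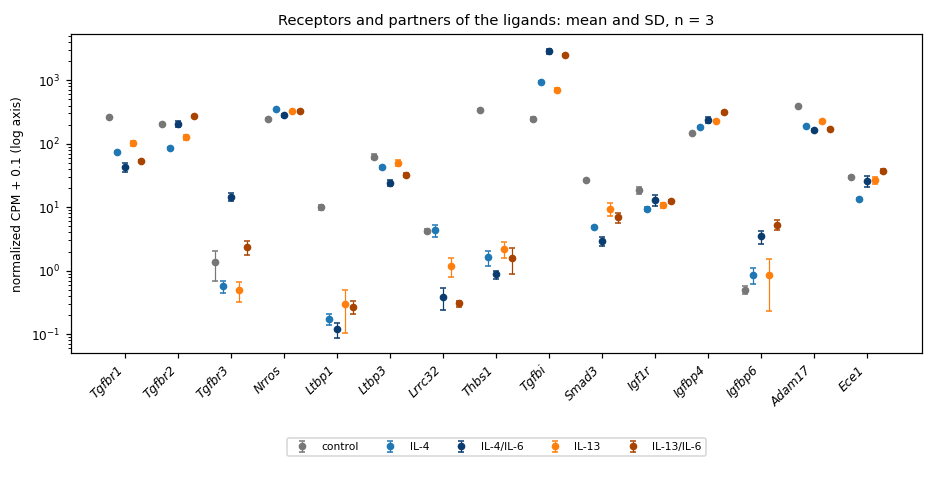
Mean and SD (n = 3) of normalized CPM plus 0.1 (vertical log axis) of 15 receptors, binding partners and response genes in the 5 groups. Tgfbr3, Tgfbi and Igfbp6 are higher in both groups with IL-6 than in the matching groups without it, and Lrrc32 is lower.

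Ranked per length, Tgfb1 and Igf1 led in control, with mean FPKM values of 66 and 52.3, and Pdgfa followed at 9.27, Pdgfb at 6.3 and Ednrb at 3.9. With IL-4 the leaders were Igf1 at 99.2 and Tgfb1 at 73.7. With IL-4/IL-6 the first place went to Ednrb at 110.2, followed by Tgfb1 at 47.5, Hbegf at 43 and Igf1 at 43. With IL-13 Tgfb1 led at 74 before Igf1 at 63.1, and with IL-13/IL-6 Tgfb1 was at 61 and Ednrb at 59.1, with Ednrb above Tgfb1 in replicates 1 and 2 and below it in replicate 3. Gdnf and Edn1 were low even where they were highest, at 1.27 FPKM with IL-4/IL-6 and at 1 FPKM with IL-4.

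For each gene the most similar profiles over the 15 libraries were looked up among 10960 other genes, by the root mean square difference of centred log2 CPM. The closest were Trappc9 to Tgfb1 (0.0836) and Lrmp to Igf1 (0.0927). Il11ra1 was closest to Pdgfa (0.156), Ptpn22 to Pdgfb (0.461), Fcgrt to Pdgfc (0.503), Cdh1 to Hbegf (0.655), Eps8 to Gdnf (0.674) and Chst7 to Edn1 (0.691, of 10961 genes). Nearest to Ednrb was Socs3 (0.562), the feedback inhibitor of IL-6 signaling, and then Il4ra (0.897). These are descriptions of likeness in 15 libraries and no test was made.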

How the data were processed

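RNA of 15 BMDM libraries (5 groups of 3) was sequenced and analysed by a service company. The authors deposited raw read counts per Ensembl gene and FPKM values, and the submitters' processing notes name CASAVA, Bowtie2 2.2.3, HISAT2 2.1.0, TopHat2, DESeq2 and GRCm38 without their roles. FPKM divides by gene length and library total, so it was used for levels between genes. The deposited counts (17001352 to 18918686 per library) were fitted with edgeR 4.0.16 (R 4.3.3) as 5 group means with TMM factors, filterByExpr at a minimum count of 10 (13938 genes tested) and the two-sided quasi-likelihood F-test, its p-values adjusted by Benjamini-Hochberg across these genes. Normalized CPM used TMM-scaled library sizes. The interaction was (IL-4/IL-6 minus IL-4) minus (IL-13/IL-6 minus IL-13). Groups at 0 counts took a floor of 3 counts over the group, and 95% exact intervals cover counting error only. Adjusted p-values measure the spread between these libraries.

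The members and gene lists were chosen with earlier results of these data known. All 9 members were named. From each list, up to 4 called genes with the largest change and no overlap between groups could be named per comparison, and for each member the 2 genes with the nearest profile. Other list genes were named for their role after their values were seen. Alternatives were RLE and upper-quartile factors, DESeq2 1.42.0, no filter, a stricter filter, a replicate block, a fit of each comparison's own groups and leaving out each library. A fit without control and FPKM with TMM-scaled sizes were added after seeing the data. The fitting code was tested on simulated data. Some items are not reported here.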

Additional observations from a re-analysis of the deposited data

Results flagged for a closer look

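The effect of IL-6 co-addition differed between IL-4 and IL-13 for 4 of the 9 genes by edgeR's test of the difference itself, with n = 3 libraries per group. Of all tested genes 7.64% were called in this test, 4.42% as negative. Nothing is read from these shares, as the 9 genes were picked with results of these libraries known. The log2 difference was -2.24 for Pdgfb (adjusted p = 4.1e-07), whose decrease was larger with IL-4. It was -0.57 for Igf1 (adjusted p = 8.6e-05), again a larger decrease with IL-4. For Tgfb1 it was -0.32 (adjusted p = 0.03), also a larger decrease with IL-4. The Tgfb1 call was lost with a replicate block (adjusted p = 0.0534), in the fit without control (adjusted p = 0.0588) and when any of 5 libraries was left out (adjusted p from 0.0594 to 0.0797), which were IL-4 replicates 1 and 2, IL-4/IL-6 replicate 1, IL-13 replicate 2 and IL-13/IL-6 replicate 3. For Ednrb it was -0.76 (adjusted p = 0.011), where the increase was larger with IL-13. The Ednrb call was lost without IL-13 replicate 3 (adjusted p = 0.0606). The doses of IL-4 and IL-13 were unequal, so the cytokine and its dose cannot be told apart.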

How the results depend on the processing

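The 9 genes gave 72 differences over 8 comparisons, refitted under up to 23 other settings each. Of 1599 values 1533 kept their direction and side of the threshold, 36 lost and 6 gained the call, and 24 turned direction, all of differences not called in the first place. The cause was not tested. For Tgfb1 with IL-13/IL-6 against control the value was 0.0568 with no filter and ran from -0.0322 to 0.0209 over the fits that left out 1 library. For Tgfb1 with IL-13 against IL-4 it ran from -0.0595 to 0.0552 over such fits. In the interaction, Pdgfa was at -0.0306 with upper-quartile factors, at -0.0245 with no filter and from -0.0810 to 0.0661 without 1 library, Gdnf from -0.65 to 0.71, and Hbegf from -0.124 to 0.0475. Calls lost under other settings included Igf1 against control with no filter (-0.09 for IL-4/IL-6, adjusted p = 0.378, and -0.17 for IL-13/IL-6, adjusted p = 0.0628), Igf1 with IL-4/IL-6 in a fit of its own groups (adjusted p = 0.0648), Tgfb1 with IL-13/IL-6 against IL-13 with no filter (adjusted p = 0.0782) and the Tgfb1 interaction without control (adjusted p = 0.0588). Pdgfb with IL-13/IL-6 against control gained a call with upper-quartile factors (-0.28, adjusted p = 0.0336) and the Edn1 interaction with no filter (-2.69, adjusted p = 0.0198). The edgeR count of genes called for IL-13 against IL-4 was 1779 and ran from 1088 (without IL-13 replicate 3) to 2915 (without IL-13 replicate 1), with 1167 without IL-4 replicate 2, 1128 without IL-4 replicate 3, 2865 without IL-4/IL-6 replicate 2 and 1149 without IL-13 replicate 2. The numbers of called genes in the other comparisons stayed within 1.5 times.

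The replicate numbers did not pair the libraries, as 3 of 30 correlations of same-numbered deviations were over 0.1 (range -0.276 to 0.163) and 3 of 15 libraries correlated best with their own number. With a replicate block the number called with IL-6 added to IL-4 went from 5488 to 5228 and with IL-6 added to IL-13 from 3563 to 3368. The block ended the calls of Pdgfa with IL-13 against control (0.22, adjusted p = 0.0582) and of the Tgfb1 interaction (-0.33, adjusted p = 0.0534), and changed no other call of the 9 genes. In the fit without control, 35 of 36 values kept their call. Depth limits Gdnf and Edn1, each with under 30 reads over a group in 3 or more groups. Group means of FPKM were recalculated with TMM-scaled sizes and with each library of the group left out, and 170 of these 180 values stayed within 1 SD. All 10 that moved came from the TMM-scaled sizes. Leaving out 1 of 3 libraries cannot move a mean by 1 SD, so those values could not fail.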
